A study of Mus musculus with 13 samples.

Results

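Fibroblasts of mammary tumors were compared with fibroblasts of hyperplastic mammary glands from the same mice, by droplet single-cell RNA sequencing of transcript 3′ ends. The comparison rested on 4 of the 13 libraries of the study, namely hyperplasia 1 and 2 and tumor 1 and 2. All 4 came from female raGFP-Wnt1 mice (Pdgfra-GFP KI/+ MMTV-Wnt1 T/+) of mixed C57BL/6 and FVB background. These mice carry a Wnt1 transgene under the MMTV promoter, which is active in mammary epithelium, and a nuclear GFP reporter knocked into 1 Pdgfra allele, and GFP-positive cells were sorted. Hyperplasia and tumor libraries of the same number came from 1 mouse, aged 45 weeks for mouse 1 and 17 weeks for mouse 2. The labels name no drug or hormone for these mice, and the body position of the sampled glands and tumors is not given in the sources used here. The 2 normal libraries of the fit, from wild-type C57BL/6 females at puberty (4 weeks) and as adults (9 weeks), helped to estimate the spread. Their labels state 2 females per condition, and their cells were sorted as lineage-negative and CD24-negative stroma. Where normal levels are given below, sort, strain, age and tissue state cannot be told apart.

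A barcode was counted as a fibroblast when it held 500 to 7500 genes, at most 10% mitochondrial UMIs (unique molecular identifiers, each standing for 1 captured transcript), at least 50 UMIs of Dcn, Lum and Col1a2 together per 10000 and no UMI of Epcam, Pecam1, Rgs5, Sox10, Ptprc or Myog. By this rule 6044 and 7984 barcodes were kept from hyperplasia 1 and 2 and 8917 and 4236 from tumor 1 and 2, which is 27181 of 32122. The UMIs of each library's fibroblasts were summed, so that the library and not the cell was the replicate (n = 2 per group).

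Fibroblasts build and remodel the extracellular matrix of the mammary stroma and exchange Wnt, TGF-β, BMP, FGF and EGF-family signals with the epithelium. The hyperplastic MMTV-Wnt1 gland precedes the tumor, and its fibroblasts are called hyperplasia-associated fibroblasts (HAFs) here, those of the tumor cancer-associated fibroblasts (CAFs). Well-known fibroblast states include a Pi16- and Dpp4-positive progenitor-like state, in which Cd34 is also expressed, and a myofibroblast-like state, in which actin-based contractile genes such as Acta2 and collagen genes are expressed together.

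The fibroblast barcodes held 56498060 to 102522735 UMIs per library. The median was 8703 and 8311.5 UMIs per fibroblast in the hyperplasia libraries and 10824 and 20256 in the tumor libraries, and the median mitochondrial share was 2.98% to 3.49%. Between any 2 of the libraries used, 8 to 34 fibroblast barcodes were shared, at most 0.48% of a library. Of the barcodes that passed the other limits, 0.19% and 0.09% in hyperplasia and 1.18% and 2.19% in tumor were set aside for a UMI of the pericyte gene Rgs5. RNA of genes that mark other cells was also found among the fibroblast sums. Of 13 immune markers tested, 8 were higher and 1 lower in tumor, and their summed level was 10.7 and 12.02 CPM (counts scaled to a common library total after TMM normalization) in hyperplasia and 27.6 and 21.4 CPM in tumor. The 5 red blood cell genes summed to 0.106 and 0.136 CPM in hyperplasia and to 142 and 44 CPM in tumor, with none called. Epithelial markers summed to 27.6 and 75.5 CPM in hyperplasia and 12.5 and 5.28 CPM in tumor, mostly from Krt19 and Cldn3 in hyperplasia but not in tumor, while of 11 tested 3 were higher and 3 lower, with a median of 1.87 in mouse 1 and 0.48 in mouse 2. Krt8 and Krt18 held only 4 to 42 UMIs in each of these 4 libraries. The immune gene Cd3e held 171 and 349 UMIs in hyperplasia, 1299 and 251 in tumor and 0 in both normal libraries. Whether this RNA came from other cells, and its part in the results below, was not tested. Less RNA of a gene per cell and fewer cells that hold it cannot be told apart in summed counts.

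Tumor and hyperplasia fibroblasts differed in 4777 of 16302 genes tested (29.3%, limma-voom, Benjamini-Hochberg adjusted p under 0.05), with 2503 (15.4%) higher and 2274 (13.9%) lower in tumor. At an unadjusted p under 0.05 there were 7411 genes. All 4777 moved in the same direction in both mice, which the call on these same values largely fixed. This agreement of direction is therefore no separate support for the calls. Over all 16302 genes tested the 2 mice correlated at r = 0.805. The difference was the larger in mouse 2 for 64.9% of the called genes and for 59.9% of all genes tested. Both tumor libraries lay above both hyperplasia libraries for 35.9% of genes and below them for 36.4%. A subset of 457 genes (2.8%) was at least 2-fold higher within each mouse at a mean of at least 10 CPM, and 287 (1.76%) were as much lower. The number of calls depended on single libraries, with 242 without hyperplasia 1, 314 without hyperplasia 2, 2975 without puberty, 2946 without adult, 7120 without tumor 1 and 3459 without tumor 2. Thinning every cell to at most 3000 UMIs gave 3032 calls, of which 2903 were among the 4777. None of the 4777 genes changed direction in any of these fits where it was tested. Of the 305 called genes named by the fixed rule, 57 kept the call in all 6 fits that left out 1 library. After thinning 292 of the 305 were tested and 44 lost the call, namely, of those described below, Cdk1, Myoc, Nos1, Postn, Wnt1, Col1a1, Hsd11b1, Smoc2, Hyal1, Wnt2b, Rspo1, Bmpr1b, Grem1, Hhip, Erbb3, Angpt4, Ephb2, Sema3e, Plxna2, Ackr4, Tnf, C1qa, C1qb, Cfi, Cd46, H2-Ab1, Nlrc5, Ifi27, Rsad2, Esr1, Pdia6, Trib3, Foxd1, Tcf15, Dlx5, Hoxb4, Itga2, Sgce, Atf3, Cldn3 and Lyz2 (adjusted p 0.0504 to 0.593). With the fibroblast markers at 100 per 10000 UMIs 21 lost it. Where nothing else is said below, a named call was lost without hyperplasia 1 and without hyperplasia 2 and held without any other library. Fits with the mouse as a block are voom fits where no tool is named. The edgeR quasi-likelihood fit of the 4 libraries with that block also lost the calls of Zbtb16, Pdgfra, Fabp4, S100a4, Cemip2, Adam33, Wnt2b, Ccl6, Ccl11, Il18, H2-Ab1, Plin4, Trib3, Itga2 and Meg3 (adjusted p 0.0505 to 0.0739). Counts of called members in each list below stand against the shares over all genes tested, 15.4% higher and 13.9% lower. Values below are in CPM and in the order hyperplasia 1, hyperplasia 2, tumor 1, tumor 2, and differences are fitted log2 values, tumor minus hyperplasia, ± SE.

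**Figure D1:**
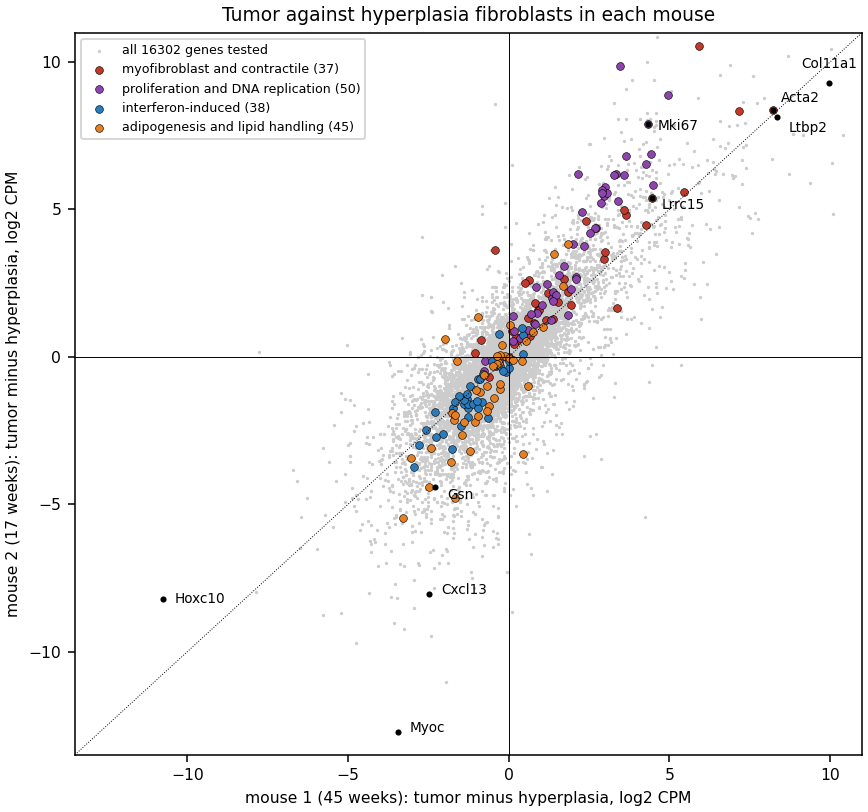
Difference between tumor and hyperplasia fibroblasts in mouse 1 (x axis, log2 CPM) and in mouse 2 (y axis, log2 CPM) for each of 16302 genes tested, with members of 4 gene lists in color and 9 genes named. The contractile and proliferation lists lie mostly up and to the right, the interferon and adipogenesis lists mostly down and to the left, and the 2 mice correlated at r = 0.805 across genes, which are not independent replicates.

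**Figure D2:**
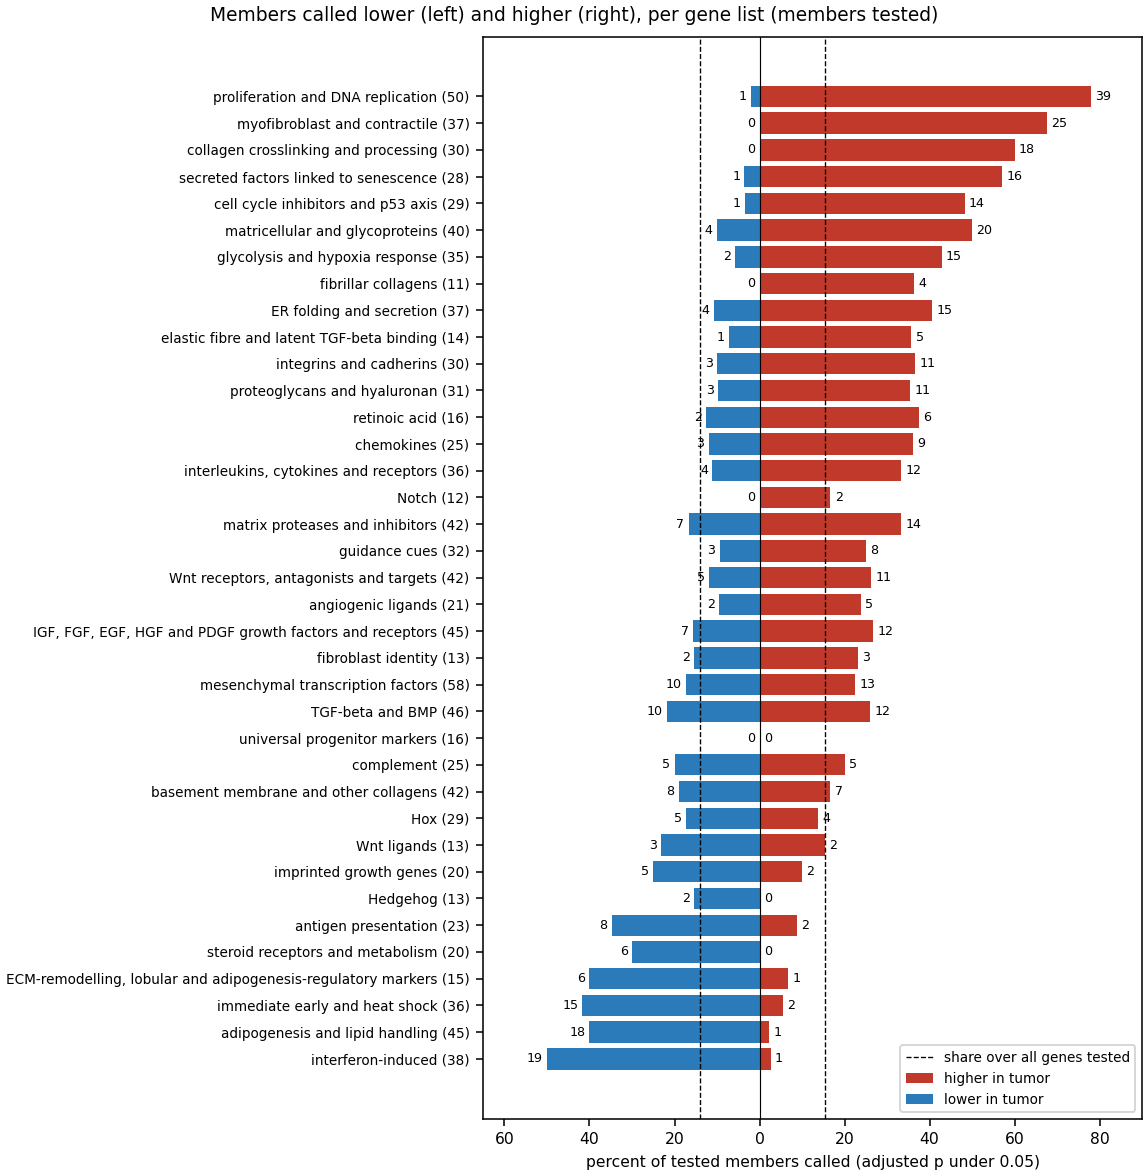
Percent of the tested members of each gene list shown that were called higher (right) or lower (left) in tumor, with the number called at the end of each bar and the number tested in parentheses. The lists of markers of other cells, among them the immune markers, are left out. Dashed lines mark the shares over all genes tested, 15.4% higher and 13.9% lower, and proliferation (39 of 50 higher) and interferon-induced genes (19 of 38 lower) stand at the ends. Dcn, Lum and Col1a2, which served to choose the barcodes, are counted in 4 of the lists shown.

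Fibroblast identity genes were detected in all 4 libraries, which the choice of barcodes by Dcn, Lum and Col1a2 in part fixed. Of the 10 other tested members of this list 3 were higher and 1 lower (15.4% and 13.9% over all genes tested), with a median difference of 0.57 against -0.01 over all genes. Col1a1, a chain of type I collagen, rose from 3583 and 2478 to 10187 and 13701 CPM (1.99 ± 0.57, adjusted p 0.0434), although its adjusted p was 0.0586 with the mouse as a replicate block. Pdpn, podoplanin, a surface glycoprotein of activated fibroblasts, rose from 118 and 123 to 290.4 and 185 CPM. S100a4 rose from 115 and 157 to 401 and 251 CPM. Pdgfra, the receptor whose locus carries the reporter, fell from 248 and 245 to 173 and 114 CPM (-0.81 ± 0.24, adjusted p 0.0467). Dcn, the small proteoglycan decorin, stood at 13409 and 12282 CPM in hyperplasia and at 5608 and 3092 CPM in tumor, a value that the limit of 50 per 10000 UMIs acted on and that is given as a description. Col1a1 failed also without tumor 2, Pdpn failed also without puberty or adult and Pdgfra failed also without puberty, adult or tumor 2.

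The difference between the 2 tumors in the progenitor markers was not tested, with 1 library each. None of the 16 tested members was called in either direction, and the median difference was 0.01 in mouse 1 and -2.49 in mouse 2. Cd34, a surface sialomucin of progenitor-like fibroblasts, stood at 594 and 653 CPM in hyperplasia and 515 and 124 CPM in tumor (-1.31 ± 0.60, adjusted p 0.136). Pi16 stood at 749 and 1042 CPM in hyperplasia and 839 and 153 CPM in tumor (adjusted p 0.2). Dpp4, a surface peptidase of the same state, stood at 219 and 227 CPM in hyperplasia and 171 and 29.1 CPM in tumor (adjusted p 0.126). For all 3 genes tumor 1 lay close to the hyperplasia libraries or within their range, while tumor 2 was the lowest library. Not all markers followed, since Fbn1 had differences of 1.28 in mouse 1 and 0.21 in mouse 2. Col15a1, which is also counted in this list, had differences of 0.17 in mouse 1 and 1.12 in mouse 2. The paper reports lower Col15a1 in Cd34-high than in Cd34-low fibroblasts of the normal gland. Col15a1 is therefore not a marker that should fall together with Cd34. In the normal libraries Cd34 stood at 865 and 878 CPM and Pi16 at 1326 and 1488 CPM, in the order puberty and adult. Without tumor 1, and thus with tumor 2 alone, Cd34, Pi16 and Dpp4 each passed, with differences of -2.33, -2.52 and -2.93.

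Of the list of matrix-remodelling, lobular and adipogenesis-regulatory markers, 1 of 15 tested members was higher, 6 were lower and 8 were not called. Cxcl13, a B-cell chemokine, fell from 113 and 126 to 20.4 and 0.477 CPM (-5.16 ± 1.37), and lost its call in the fit of the 4 libraries with the mouse as a block (adjusted p 0.0551). Enpp2, the enzyme autotaxin, fell from 599 and 471 to 62.1 and 17.7 CPM (-4.01 ± 0.66, adjusted p 0.0121). Fmo2 fell from 81.8 and 88.2 to 17.7 and 7.42 CPM and Pla2g7 from 145 and 130.3 to 17.8 and 16.3 CPM. Hsd11b1, which regenerates active glucocorticoid, fell from 314 and 320.0 to 132 and 73.6 CPM. Gdf10, a TGF-β family ligand, fell from 72.9 and 40.4 to 19.7 and 16.6 CPM (-1.59 ± 0.34). Cilp, a cartilage matrix protein, was the 1 member that rose, from 134 and 73.5 to 986 and 695 CPM (3.05 ± 0.34). Crabp1, a retinoic acid binding protein, stood at 353 and 355 CPM in hyperplasia and 240.2 and 356 CPM in tumor (adjusted p 0.619), far above the normal libraries at 8.35 and 19.6 CPM in every library. Bmp5 stood at 10 and 3.75 CPM in hyperplasia and 5.77 and 0.455 CPM in tumor and Cxcl12 at 424 and 328 CPM in hyperplasia and 436 and 287 CPM in tumor, neither of them called. Leaving out 1 library at a time, Cilp kept the call in all 6 fits. Cxcl13 failed also without puberty or adult and Hsd11b1 failed also without tumor 2.

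Of 37 tested myofibroblast and contractile genes 25 were higher and 0 lower, with a median difference of 1.60. Acta2 (GRCm38 chr19:34241090-34255590), smooth muscle α-actin, rose from 0.76 and 2.04 to 231 and 679.7 CPM (8.25 ± 0.98, adjusted p 0.006), where the normal libraries had 47.6 and 17.7 CPM. Tagln, the actin-binding transgelin, rose from 3.16 and 3.39 to 453 and 1088 CPM (7.74 ± 0.57). Both were higher in tumor 2 than in tumor 1, and both hyperplasia libraries lay below the normal ones. The normal libraries also differ in sort, strain and age, which cannot be told apart from hyperplasia here. Lrrc15, a membrane protein of myofibroblast-like CAFs (GRCm38 chr16:30269302-30283256), rose from 12.7 and 8.81 to 281 and 372 CPM, 30.8-fold by the fit (4.95 ± 0.31, adjusted p 0.0017). Cthrc1, a secreted collagen-associated protein, rose from 42.9 and 24.6 to 514 and 779 CPM (4.29 ± 0.43). Tpm2, a tropomyosin, rose from 11.5 and 10.9 to 146 and 308 CPM, and Actn1, an α-actinin, from 13.8 and 15.5 to 109 and 182 CPM. Myocd, the cofactor of the serum response factor SRF, had 0 UMIs in both hyperplasia libraries and 39 and 29 UMIs in the tumor libraries, at least 7.54-fold higher against a floor of 3 UMIs per library. Srf itself stood at 16.3 and 15 CPM in hyperplasia and 9.04 and 22.4 CPM in tumor and was not called, with a difference of 0.52 without tumor 1 and -0.78 without tumor 2, each called. Postn, the matricellular protein periostin, rose from 1639 and 687 to 2557 and 4199 CPM (1.62 ± 0.46, adjusted p 0.0416), and its adjusted p was 0.0774 in the fit of the 4 libraries with the mouse as a block. Tnc, tenascin C, stood at 149.6 and 84.2 CPM in hyperplasia and 112 and 1035 CPM in tumor (adjusted p 0.215), with tumor 2 alone above the hyperplasia libraries, and it passed without tumor 1 (3.20). Rgs5-positive barcodes were removed before summing, and of 9 pericyte and smooth muscle markers tested 2 were higher (Cspg4 and Mcam) and 1 lower, with Myh11, the smooth muscle myosin, at 0.406 and 0.476 CPM in hyperplasia and 0.197 and 0.522 CPM in tumor. Lmod1 was called higher, from 0.0353 and 0.136 to 0.454 and 0.444 CPM (2.46 ± 0.70). Whether that call held without single libraries is not reported here. Actg2 (0.0177, 0, 1.6 and 10.1 CPM, adjusted p 0.0523), Cnn1 (0.0707, 0.0952, 0.415 and 2.45 CPM, adjusted p 0.0845) and Des (adjusted p 0.735) were not called. The calls of Tagln, Lrrc15, Cthrc1, Tpm2 and Actn1 held in each of the 6 leave-one-out fits. Postn failed also without puberty, adult or tumor 2.

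Contractile genes are known targets of SRF, which binds the CArG box, and this motif was searched by name on both strands of the promoter windows that span 250 bases before to 50 after each RefSeq start site on GRCm38.p6. It was present in 535 of 32851 windows (1.63%) and in 4 of 34 windows of the contractile list (11.8%), which belong to 4 of the 28 list genes with a window. Of the 19 called list genes with a window 3 held it, so most called genes did not. All 4 genes are shown with the motif in capitals, the 3 called genes Myl9, Cnn2 and Vcl and the uncalled Srf, which has 2 overlapping stretches. The Myl9 site lies at chr2:156775295-156775320 on the plus strand, the Cnn2 site at chr10:79988536-79988561 on the plus strand and the Vcl site at chr14:20929163-20929188 on the plus strand. The Srf sites lie at chr17:46556227-46556252 and chr17:46556207-46556232 on the minus strand. A match is a sequence description and not a measured site.
Myl9: agcagaggCCTAATAAGGccgggctg
Cnn2: cttccacgCCTTATAAGGacatttgc
Vcl: cactatgcCCTTATAAGGagcgcccc
Srf, site 1: ggggctcgCCATATAAGGagcggcct
Srf, site 2: cggcctcgCCATAAAAGGaaacattg

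Of the called genes with these windows, Cnn2, a calponin that binds actin, rose from 13.8 and 18.8 to 109 and 187 CPM (3.14 ± 0.29). Myl9, the regulatory light chain of non-muscle and smooth muscle myosin, rose from 29 and 23.5 to 51.4 and 83.9 CPM (1.34 ± 0.31). Vcl, the focal adhesion protein vinculin, rose from 61.6 and 65.6 to 94.1 and 164 CPM (0.97 ± 0.26). Both tumor libraries lay above both hyperplasia libraries for these 3 genes, as they did for 35.9% of all genes tested. The 3 genes were taken from the called ones, so this is no separate support. Cnn2 kept its call in all 6 leave-one-out fits, Vcl failed also without puberty, adult or tumor 2, and after thinning Myl9 and Vcl missed the threshold (adjusted p 0.0536 and 0.0572). Vcl also missed it in the edgeR fit of the 4 libraries with the mouse as a block (adjusted p 0.0532).

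**Figure D3:**
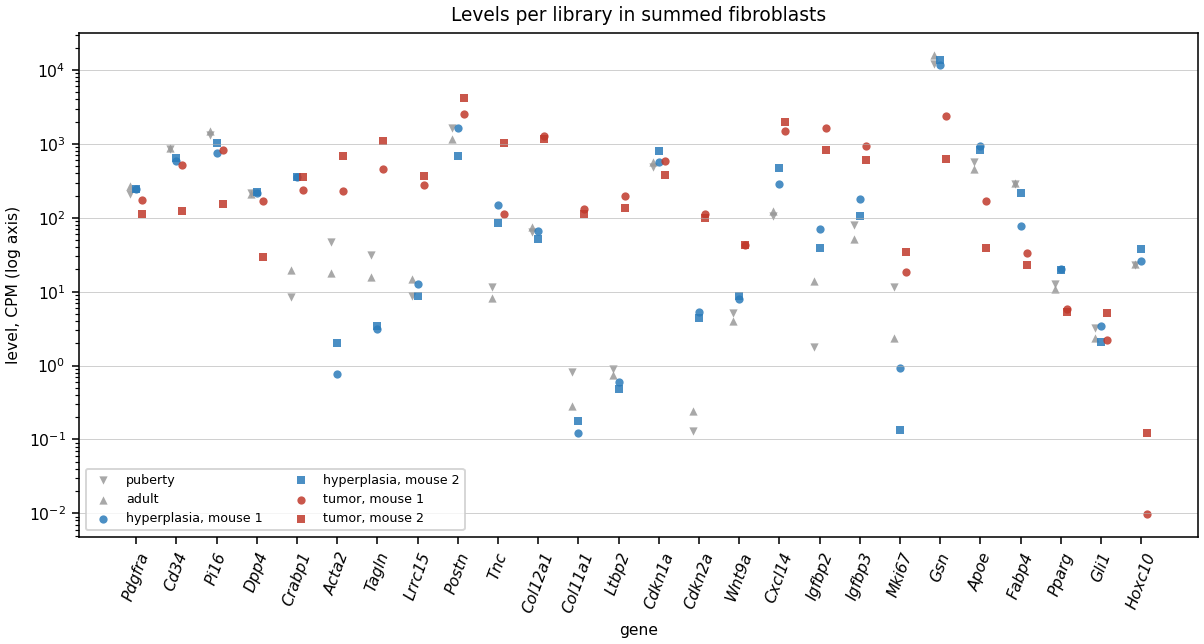
Level of 26 genes in CPM (log axis) in each of 6 libraries of summed fibroblasts, with hyperplasia in blue, tumor in red, normal glands in grey, circles for mouse 1 and squares for mouse 2. Acta2, Tagln, Col11a1, Ltbp2 and Cdkn2a are separated by an order of magnitude or more between tumor and hyperplasia, while Cd34, Pi16 and Dpp4 are low in tumor 2 and not in tumor 1.

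Of 10 fibrillar collagen genes other than Col1a2 4 were higher and 0 lower (median 1.13). Col11a1 (GRCm38 chr3:114030540-114220718), a minor fibrillar chain that sets fibril diameter, had the largest fitted difference of the named genes, from 0.124 and 0.177 to 132 and 113 CPM (9.60 ± 0.56, adjusted p 0.00152), and the normal libraries had 0.812 and 0.282 CPM. Col5a2 rose from 767 and 575 to 1971 and 2106 CPM. Col5a1 rose from 412 and 390.1 to 722 and 857 CPM, with adjusted p 0.0536 under the replicate block. Among basement membrane and other collagens 7 of 42 were higher and 8 lower. Col12a1, which decorates collagen fibrils, rose from 65.3 and 51.9 to 1276 and 1163 CPM, 20.9-fold (4.38 ± 0.19, adjusted p 0.000955). Col8a1, a short-chain collagen, rose from 22 and 5.4 to 774 and 1265 CPM (6.55 ± 0.63), and its partner Col8a2 from 2.16 and 1.94 to 63.4 and 54.7 CPM (4.85 ± 0.23). Lama1, a laminin chain, rose from 0 and 0.068 to 5.91 and 4.5 CPM. Lower were the type IV chains Col4a3 (from 6.89 and 7.08 to 0.592 and 0.133 CPM) and Col4a4 (from 21 and 18 to 3.92 and 1.24 CPM), and Lama2, the laminin chain of mesenchymal basement membranes, fell from 449 and 417 to 208 and 143 CPM. Among these, Col11a1, Col12a1, Col8a1, Col8a2 and Lama1 passed in all 6 fits that left out a library. Col5a1 failed also without tumor 2.

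Of 30 genes of collagen processing and crosslinking 18 were higher and 0 lower, and 12 were not called. Among the latter, Pcolce2, an enhancer of procollagen processing, stood at 552 and 599.6 CPM in hyperplasia and 279 and 34.1 CPM in tumor (-2.57 ± 0.88, adjusted p 0.0678), and it passed under the replicate block in the fit of 6 libraries (adjusted p 0.0394) but not in that of 4 (adjusted p 0.0656), and it passed when either tumor library was left out. P4ha3, a prolyl hydroxylase subunit, rose from 6.1 and 12.3 to 75.9 and 122 CPM (3.45 ± 0.41). Lox, the lysyl oxidase, rose from 365 and 328 to 925 and 713 CPM (1.23 ± 0.22), and Loxl3 from 33.8 and 27.1 to 84.2 and 130.4 CPM. P3h1 rose from 27.3 and 29.6 to 64.8 and 112 CPM, P4ha2 from 40.7 and 42.4 to 89 and 164 CPM and Fkbp10, a collagen chaperone, from 56.5 and 65.5 to 127 and 233 CPM. Over these 6 genes the test gave adjusted p 0.00609 to 0.0182. All 6 leave-one-out fits called P4ha3.

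Of 40 matricellular proteins and glycoproteins 20 were higher and 4 lower. Ccn4, a Wnt-inducible secreted protein, rose from 4.19 and 2.73 to 92.4 and 127 CPM (5.02 ± 0.28), and Ccn2, a connective tissue growth factor, from 87.6 and 85 to 652 and 924 CPM (3.17 ± 0.23). Comp, a cartilage matrix protein, rose from 0.283 and 0.707 to 13.8 and 11.3 CPM. Spp1, osteopontin, rose from 3.3 and 2.46 to 65 and 653 CPM (6.19 ± 1.24), with tumor 2 far above tumor 1. Matn3 rose from 0.0177 and 0 to 1.58 and 2.99 CPM. Among those that fell, Vtn, vitronectin, went from 25.4 and 18.7 to 2.2 and 2.34 CPM (-3.26 ± 0.24), Tgfbi from 150.4 and 103 to 11.2 and 20.1 CPM (-3.06 ± 0.32), Matn4 from 24 and 46.3 to 8.61 and 10 CPM and Smoc2 from 397 and 444 to 223 and 243 CPM. With any 1 library removed, Ccn4, Ccn2, Comp, Vtn and Tgfbi remained called. Matn4 failed only without hyperplasia 2.

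Proteoglycan and hyaluronan genes other than Dcn and Lum were higher in 11 and lower in 2 of 29 tested. Fmod, fibromodulin, rose from 2.05 and 2.16 to 192 and 86.1 CPM (5.92 ± 0.66). Bgn, biglycan, rose from 984 and 838 to 4227 and 4373 CPM (2.24 ± 0.22). Gpc1, a heparan sulfate glypican, rose from 3.34 and 2.65 to 68.2 and 80.9 CPM (4.65 ± 0.22). Cemip, which takes part in hyaluronan breakdown, rose from 0.283 and 0.136 to 44.7 and 14.7 CPM, Cemip2 from 16 and 9.86 to 40.2 and 90.6 CPM and Aspn, asporin, from 181 and 164 to 625 and 648 CPM. Sdc4, a syndecan, fell from 267 and 485 to 154 and 140.2 CPM, and Hyal1 fell from 3.23 and 2.91 to 1.71 and 1.63 CPM. In each of the 6 smaller fits Bgn and Gpc1 passed. Sdc4 failed only without hyperplasia 2 and Hyal1 failed also without puberty, adult or tumor 2. Hyal1 lost its call in the fit of the 4 libraries with the mouse as a block (adjusted p 0.0540).

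For elastic fibre and latent TGF-β binding genes, 5 of 14 tested members were higher and 1 lower. Ltbp2, a fibrillin-associated protein, rose from 0.601 and 0.476 to 198 and 136 CPM (8.25 ± 0.38, adjusted p 0.000955). Fbn2, a fibrillin, rose from 41.4 and 34.7 to 225 and 342 CPM, Efemp2, a fibulin, from 111 and 108 to 306 and 361 CPM and Fbln2 from 505 and 573 to 1411 and 1102 CPM. Lrrc32, which tethers latent TGF-β at the cell surface, rose from 20.5 and 17.7 to 56.3 and 78.1 CPM. Ltbp4, a binding protein of latent TGF-β1, fell from 239.9 and 227 to 89.5 and 47.7 CPM (-1.84 ± 0.33). Leaving out 1 library at a time, Ltbp2 kept the call in all 6 fits. Efemp2 failed only without hyperplasia 1.

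Matrix proteases and their inhibitors were mixed, with 14 of 42 higher, 7 lower and a median of 0.07. Timp1, an inhibitor of metalloproteinases, rose from 38.1 and 44.1 to 742 and 1759 CPM (4.80 ± 0.37). Serpine2, an inhibitor of serine proteases, rose from 64.3 and 66.4 to 553 and 954 CPM (3.48 ± 0.25). Mmp13, a collagenase, rose from 0.0353 and 0.0272 to 8.57 and 24.8 CPM, and Mmp9, a gelatinase, from 0.23 and 0.218 to 5.11 and 10.5 CPM. Mmp10 rose from 0.0177 and 0 to 0.553 and 1.82 CPM, where hyperplasia held 1 UMI in all. Adamts20 rose from 0.159 and 0.0544 to 1.18 and 1.01 CPM. Falls were seen for Htra1 (from 682 and 565 to 209 and 203 CPM), Plau, the urokinase (from 89.4 and 83.1 to 32.2 and 27.2 CPM), Adamts1 (from 1265 and 978 to 595 and 345 CPM), Adamts16 (from 9.72 and 18.9 to 6.86 and 4.27 CPM) and Adam33 (from 62 and 61.8 to 41.4 and 22.9 CPM). Adamts9 fell from 50.2 and 36.7 to 19.5 and 29.1 CPM, with adjusted p 0.0582 under the replicate block. The calls of Timp1 and Serpine2 held in each of the 6 leave-one-out fits. Mmp10 and Adam33 failed also without puberty or adult, Htra1 and Plau failed only without hyperplasia 1, Adamts16 failed also without puberty, adult or tumor 2 and Adamts9 failed also without puberty, adult or tumor 1. Adamts16 lost its call in the fit of the 4 libraries with the mouse as a block (adjusted p 0.0735), as did Adamts9 (adjusted p 0.09).

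Proliferation genes had the highest share of rises, with 39 of 50 higher and 1 lower (15.4% and 13.9% over all genes) and a median of 2.39. Mki67, the marker of cycling cells, rose from 0.919 and 0.136 to 18.6 and 34.1 CPM (6.21 ± 1.29, adjusted p 0.0199). Top2a, a topoisomerase used in mitosis, rose from 1.11 and 0.326 to 23.9 and 39.3 CPM (5.72 ± 1.11), and Cdk1, the mitotic kinase, from 0.389 and 0.0544 to 12.4 and 29.1 CPM (7.01 ± 1.60). Birc5, survivin, rose from 0.83 and 0.435 to 16.2 and 41.5 CPM and Ube2c, a mitotic ubiquitin enzyme, from 1.31 and 0.299 to 16.5 and 34.2 CPM. Bub1, a spindle checkpoint kinase, rose from 0.23 and 0 to 2.64 and 6.28 CPM, with adjusted p 0.0534 under the replicate block. All these were higher in tumor 2 than in tumor 1. Pcna, the replication clamp, was the 1 member that fell, from 89.7 and 71.5 to 52.7 and 50.9 CPM (-0.63 ± 0.16). The puberty library held Mki67 at 11.4 CPM, above both hyperplasia libraries. Bub1 failed also without adult and Pcna failed also without puberty, adult or tumor 2.

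Among cell cycle inhibitors and p53-axis genes 14 of 29 were higher, 1 was lower and 14 were not called. Cdkn2a, the locus of p16Ink4a and p19Arf, whose transcripts share a 3′ end and were not told apart by these counts, rose from 5.23 and 4.39 to 112 and 100.3 CPM, 22.2-fold (4.47 ± 0.19, adjusted p 0.000955), and the normal libraries had 0.128 and 0.242 CPM. Its neighbor Cdkn2b, p15, rose from 9.66 and 10.7 to 71.5 and 101 CPM (3.06 ± 0.22). Pmaip1, a pro-apoptotic p53 target, rose from 1.63 and 2.12 to 16.4 and 16.3 CPM (3.12 ± 0.20), and Phlda3 from 44.1 and 71.8 to 145 and 219 CPM, Zmat3 from 14.7 and 17.6 to 49.8 and 44.9 CPM and Ccng1 from 28.7 and 30.7 to 92.8 and 79.9 CPM, all known p53 targets. Cdkn1a, p21, also a p53 target, stood at 569.6 and 794 CPM in hyperplasia and 583 and 381 CPM in tumor (adjusted p 0.181). Cdkn1c, p57, fell from 126 and 106 to 74.2 and 38.4 CPM (-1.12 ± 0.31). Among these, Cdkn2a, Cdkn2b, Pmaip1 and Ccng1 passed in all 6 fits that left out a library. Phlda3 and Zmat3 failed only without hyperplasia 1 and Cdkn1c failed also without puberty or adult.

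Secreted factors that have been linked to senescence were higher in 16 of 28 and lower in 1. Igfbp2, an IGF-binding protein, rose from 70.4 and 38.7 to 1624 and 835 CPM, 22.2-fold (4.47 ± 0.76, adjusted p 0.0129), and Igfbp3 from 182 and 107 to 931 and 613 CPM (2.43 ± 0.37). Cxcl14, a chemokine, rose from 288 and 467 to 1517 and 1979 CPM (2.24 ± 0.28), and Cxcl5, which attracts neutrophils, from 2.77 and 1.43 to 55.8 and 132 CPM (5.47 ± 0.63). Csf2, GM-CSF, rose from 0 and 0.0408 to 3.73 and 3.45 CPM from 3 UMIs in hyperplasia in all. Il6 stood at 252 and 113 CPM in hyperplasia and 534 and 225 CPM in tumor (adjusted p 0.156), with the libraries overlapping and both mice higher in tumor, and it passed under the replicate block (adjusted p 0.0105) and without tumor 2. Igfbp6 fell from 1413 and 2527 to 655 and 407 CPM (-1.87 ± 0.34). All 6 leave-one-out fits called Cxcl14. Igfbp3 failed only without hyperplasia 2 and Csf2 failed only without hyperplasia 1.

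The share of fibroblasts with at least 1 UMI of a gene was compared after each cell had been thinned to 3000 UMIs, which kept 5858, 7530, 8497 and 4013 cells. With 2 libraries against 2 an exact permutation test cannot go below 0.3333, so no test was made. Acta2 was found in 0.102% and 0.438% of hyperplasia fibroblasts and in 17.6% and 42.5% of tumor fibroblasts, against 0.381%, 1.01%, 28.5% and 65.4% without thinning. Lrrc15 was found in 2.73% and 1.95% and in 34.1% and 51.0% (6.54%, 4.51%, 50.6% and 79.6% without thinning). Cdkn2a was found in 1.71% and 1.37% and in 16.4% and 19.04% (3.46%, 3.06%, 26.9% and 40.2%), while Mki67 was found in 0.154% and 0.0398% and in 1.99% and 5.18% (0.215%, 0.1%, 4.04% and 10.3%). Of the barcodes set aside as other cells, 53, 131, 53 and 261 held at least 3000 UMIs and were thinned in the same way. With shallower barcodes included, the medians of the other cells before thinning were 4811, 7832, 11779 and 9848 UMIs. In the thinned other cells Lrrc15 was found in 1.89%, 0%, 9.43% and 1.53% and Cdkn2a in 0%, 0%, 11.3% and 1.53%. A count of 0 among 53 and 131 barcodes allows a share of up to 5.66% and 2.29%. Mki67 was found in 1.89%, 0%, 5.66% and 2.30% of the other cells, so that in tumor 1 they lay above the fibroblasts. Igfbp2 was found in 6.18%, 4.41%, 35.3% and 34.7% of thinned fibroblasts. In the other cells its shares were 3.77%, 1.53%, 35.8% and 24.9%, which also rose in tumor. For Acta2 the other cells include pericytes and myoepithelium, which express it, so they give no background. Col12a1 was found in 13.2% and 10.9% and in 65.7% and 78.5% of thinned fibroblasts (26.2%, 22.9%, 80.7% and 94.3% without thinning) and in 8.397% to 17.0% of the other cells. Cd34 was found in 62.4% and 62.0% and in 54.6% and 25.9% (80.9%, 77.5%, 71.1% and 59.1% without thinning), with at most 5.66% of the other cells. Tnc was found in 18.6%, 14.4%, 13.3% and 56.0% of thinned fibroblasts, so that tumor 2 stood apart. Pi16 was found in 29.8%, 34.2%, 54.7% and 24.0% of thinned fibroblasts and in 36.9%, 40.2%, 69.5% and 44.5% without thinning, so that tumor 1 was the highest library and the place of tumor 2 turned with the thinning.

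**Figure D4:**
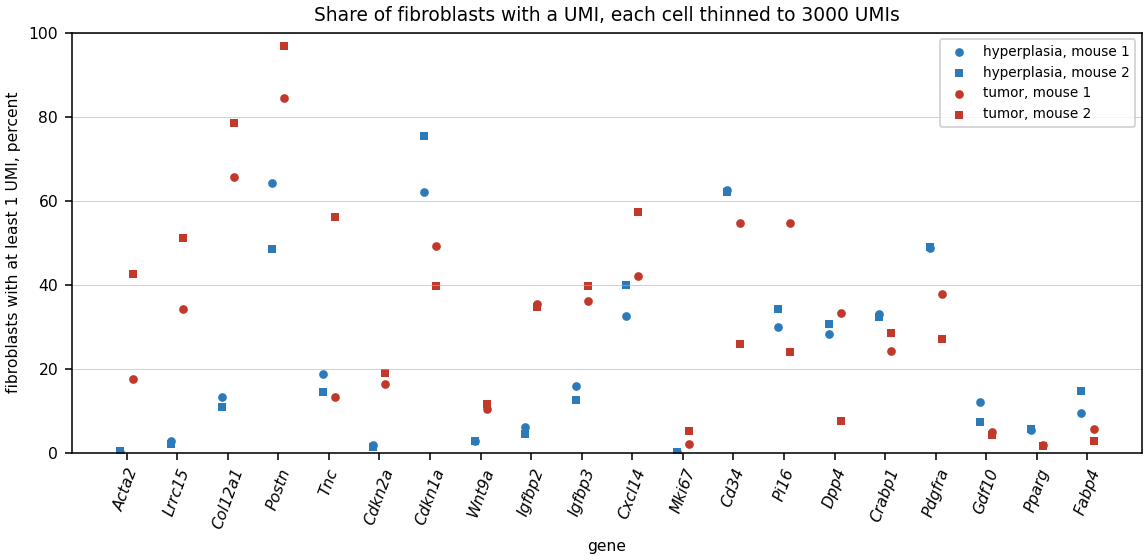
Share of fibroblasts (percent) with at least 1 UMI of each of 20 genes after thinning each cell to 3000 UMIs, per library, with hyperplasia in blue and tumor in red. Acta2, Lrrc15, Col12a1, Cdkn2a, Igfbp2 and Igfbp3 are higher in both tumors, and Dpp4 is low in tumor 2 (7.55%) but not in tumor 1 (33.2%). The other cells (not shown) were barcodes below the fibroblast marker minimum with a UMI of Epcam, Pecam1, Rgs5, Sox10, Ptprc or Myog. In them Igfbp2 was found in 3.77% and 1.53% in hyperplasia and in 35.8% and 24.9% in tumor.

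Wnt signaling genes were examined as ligands, receptors, antagonists and targets. Of 13 Wnt ligands 2 were higher and 3 lower (15.4% and 23.1%, against 15.4% and 13.9% over all genes), which is near the share over all genes. Wnt9a rose from 8.02 and 8.7 to 43.5 and 43.4 CPM, 5.18-fold (2.37 ± 0.16, adjusted p 0.002), with nearly equal levels in the 2 tumors, and Wnt2b rose from 0.194 and 0.15 to 0.553 and 0.71 CPM. Wnt4, which acts in branching morphogenesis of the gland, fell from 18.6 and 16.8 to 3.56 and 2.45 CPM (-2.56 ± 0.22), and Wnt6 from 2.35 and 3.06 to 0.355 and 1.12 CPM. Wnt1, the transgene's gene, was low in every library, at 0.601 and 1.45 CPM in hyperplasia and 0.296 and 0.167 CPM in tumor (-2.09 ± 0.57, adjusted p 0.0382), and its call was lost in the fit of the 4 libraries with the mouse as a block (adjusted p 0.0681). Of 42 receptors, antagonists and targets 11 were higher and 5 lower (26.2% and 11.9%, against 15.4% and 13.9% over all genes). The receptor Fzd1 rose from 69.7 and 66.6 to 240.0 and 241 CPM, and Fzd6 from 0.106 and 0.109 to 2.96 and 2.08 CPM. The secreted antagonists Sfrp2 (from 240.0 and 155 to 755 and 659 CPM), Dkk3 (from 28 and 23.8 to 96.2 and 78.1 CPM) and Wif1 (from 0.194 and 0.136 to 1.54 and 2.6 CPM) rose. Lef1, a transcription factor of the pathway, rose from 0 and 0.0272 to 0.582 and 0.311 CPM from 2 UMIs in hyperplasia. The targets Nkd2, a feedback inhibitor (from 43.6 and 36 to 89 and 80.6 CPM, 1.10 ± 0.28), and Lgr5, a receptor of R-spondins (from 4.65 and 3.63 to 13.4 and 13.9 CPM, 1.74 ± 0.18), were higher. The feedback targets Axin2 (from 25.8 and 24.1 to 13.4 and 6.31 CPM, -1.43 ± 0.35), Apcdd1 (from 38 and 48.9 to 22.2 and 21.1 CPM) and Znrf3 (from 8 and 7.34 to 4.65 and 3.32 CPM) fell, as did Rspo1 (from 3.67 and 2.39 to 1.27 and 1.49 CPM) and Tcf7l1 (from 70 and 66.5 to 45.8 and 25.3 CPM). Both Axin2 and Znrf3 are known both as targets and as inhibitors of the pathway. With any 1 library removed, Wnt9a and Wnt4 remained called. Wnt2b failed also without tumor 2, Wnt6 failed also without puberty or adult, Wnt1 and Tcf7l1 failed also without puberty, adult or tumor 2, Fzd1 failed only without hyperplasia 1 and Rspo1 failed also without puberty, adult, tumor 1 or tumor 2. Lgr5 failed only without hyperplasia 2, and Nkd2 missed the threshold also after thinning (adjusted p 0.0851) and with fibroblast markers at 100 per 10000 UMIs (adjusted p 0.0635). Rspo1 lost its call in the fit of the 4 libraries with the mouse as a block (adjusted p 0.0637).

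TGF-β and BMP genes moved in both directions, 12 of 46 higher and 10 lower, with a median of -0.02. These are 26.1% and 21.7%, against 15.4% and 13.9% over all genes. The ligands Tgfb3 (from 24.6 and 18.5 to 86.9 and 115 CPM, 2.24 ± 0.21) and Inhba, the activin βA chain (from 6.4 and 6.53 to 62.6 and 144 CPM, 3.88 ± 0.39), rose, as did Gdf6 (from 5.23 and 3.24 to 28.1 and 23.3 CPM). Pmepa1, a target and brake of TGF-β signaling, rose from 217 and 272 to 1176 and 1136 CPM (2.25 ± 0.17). Grem1, an antagonist of BMPs, rose from 0.318 and 0.204 to 1.45 and 4.41 CPM, and the receptor Bmpr1b from 0.053 and 0.0408 to 0.78 and 3.8 CPM. Lower were the ligands Bmp4 (from 60.1 and 63 to 7.98 and 2.4 CPM, -3.79 ± 0.47) and Bmp2 (from 50.2 and 53.8 to 10.6 and 3.89 CPM), the pseudoreceptor Bambi (from 30.1 and 28.7 to 10.3 and 12.5 CPM), Acvr2b (from 3.39 and 3.66 to 1.2 and 0.755 CPM) and Id1, a BMP target (from 168 and 215 to 68.9 and 85 CPM). In each of the 6 smaller fits Tgfb3, Gdf6 and Pmepa1 passed. Inhba failed only without hyperplasia 1 and Grem1 and Bmpr1b failed also without puberty or adult.

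In the Hedgehog list 0 of 13 were higher and 2 lower (0% and 15.4%, against 15.4% and 13.9% over all genes). The share of falls is near that over all genes. Hhip, a decoy receptor and target, fell from 6.73 and 5.29 to 0.888 and 0.411 CPM (-3.26 ± 0.71), and Cdon, a coreceptor, from 109 and 87 to 54.7 and 34.9 CPM (-1.16 ± 0.24). The targets Gli1 (3.45 and 2.07 CPM in hyperplasia and 2.24 and 5.08 CPM in tumor, adjusted p 0.586) and Ptch1 (11.6 and 7.76 CPM in hyperplasia and 6.48 and 12.6 CPM in tumor, adjusted p 0.908) were not called, with opposite signs in the 2 mice. Of 12 Notch genes 2 were higher and 0 lower (16.7% and 0%, against 15.4% and 13.9% over all genes). The 2 were Heyl, a target (from 2.83 and 3.56 to 17.4 and 26.6 CPM, 2.74 ± 0.33), and Notch4 (from 0.124 and 0.163 to 0.523 and 0.588 CPM). Notch4 failed also without tumor 2.

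Growth factors and their receptors were higher in 12 and lower in 7 of 45 (26.7% and 15.6%, against 15.4% and 13.9% over all genes). Nrg1, neuregulin 1, a ligand of ERBB receptors, rose from 0.495 and 1.32 to 35.4 and 30.3 CPM (5.27 ± 0.39, adjusted p 0.00208). Ereg, epiregulin, another such ligand, rose from 1.45 and 2.61 to 17.8 and 76.2 CPM (4.21 ± 0.96). Areg, amphiregulin, was not called, at 0.053 and 0.109 CPM in hyperplasia and 0.355 and 17 CPM in tumor (adjusted p 0.304). Areg passed under the replicate block with 6 libraries (adjusted p 0.0125) and with 4 (adjusted p 0.0307). It also passed in the 6-library fits of edgeR (adjusted p 0.0389) and DESeq2 (adjusted p 0.000665). Its difference was 7.62 without tumor 1 and 2.06 without tumor 2. Pdgfa, a PDGF chain, rose from 2.99 and 2.6 to 12.4 and 28.9 CPM, Ptn, pleiotrophin, from 28.1 and 6.31 to 76.7 and 339.7 CPM and Fgf21 from 0.707 and 1.02 to 7.88 and 6.78 CPM. Ptn lost its call in the fit of the 4 libraries with the mouse as a block (adjusted p 0.0667). Fgf10, a mesenchymal ligand of epithelial FGFR2, fell from 26.3 and 19.3 to 4.98 and 3.97 CPM (-2.33 ± 0.22). Met, the HGF receptor, fell from 13.8 and 10.3 to 2.46 and 0.533 CPM (-3.32 ± 0.56), Tgfa from 0.848 and 0.503 to 0.0888 and 0.0444 CPM and Nrg2 from 2.81 and 2.28 to 0.691 and 0.477 CPM. Erbb3 fell from 1.93 and 3.96 to 0.928 and 0.0555 CPM, with adjusted p 0.078 under the replicate block. Leaving out 1 library at a time, Nrg1 and Fgf10 kept the call in all 6 fits. Ptn failed also without puberty or adult and Erbb3 failed also without puberty, adult or tumor 2.

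Of 21 angiogenic ligands and receptors 5 were higher and 2 lower (23.8% and 9.52%, against 15.4% and 13.9% over all genes). Apln, apelin, rose from 1.86 and 1.43 to 10.5 and 11.1 CPM (2.74 ± 0.22) and Vegfc, a lymphangiogenic ligand, from 19.2 and 16.9 to 38 and 40.1 CPM (1.12 ± 0.14). Flt1 rose from 1.41 and 1.31 to 4.37 and 10 CPM, Angpt4 from 0.689 and 0.625 to 2.4 and 5.06 CPM and Angpt1, a TEK ligand, from 24.9 and 17.6 to 35.4 and 48.9 CPM. Angpt2 fell from 37.8 and 28.7 to 10.5 and 11.8 CPM and Angptl7 from 3.16 and 1.75 to 0.286 and 0.266 CPM. Vegfa was not called, at 116 and 106 CPM in hyperplasia and 90.3 and 97.2 CPM in tumor. The calls of Apln held in each of the 6 leave-one-out fits. Angpt1 failed also without puberty, adult or tumor 2 and Angpt2 and Angptl7 failed only without hyperplasia 1. Angpt1 lost its call in the fit of the 4 libraries with the mouse as a block (adjusted p 0.0608).

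Guidance cues and receptors were higher in 8 and lower in 3 of 32 (25% and 9.4%, against 15.4% and 13.9% over all genes). Slit1 had 0 UMIs in both hyperplasia libraries and 146 and 150 in the tumors, at least 33.1-fold higher against the same floor. Unc5c, a netrin receptor, rose from 0.583 and 0.421 to 11.2 and 13.6 CPM (4.63 ± 0.46), Unc5b from 6.87 and 6.34 to 23.5 and 36.3 CPM and Plxna4, a semaphorin receptor, from 0.336 and 0.326 to 3.82 and 4 CPM. Efnb2 rose from 15.3 and 11.7 to 26.7 and 30.4 CPM and its receptor Ephb2 from 14.3 and 12.6 to 27.7 and 29.7 CPM. Sema3e fell from 14.1 and 19.3 to 4.46 and 0.544 CPM (-3.35 ± 0.81), Plxna2 from 12.7 and 8.81 to 6.66 and 3.73 CPM and Robo1 from 34.9 and 38.8 to 23.2 and 24.1 CPM. Among these, Plxna4 passed in all 6 fits that left out a library. Unc5c failed only without hyperplasia 2, Plxna2 failed also without puberty, adult or tumor 2 and Robo1 failed also without puberty or adult. Sema3e lost its call in the fit of the 4 libraries with the mouse as a block (adjusted p 0.0509).

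Chemokines were higher in 9 and lower in 3 of 25. The neutrophil attractants Cxcl2 (from 31.2 and 48.5 to 229.7 and 576 CPM, 3.23 ± 0.42) and Cxcl3 (from 0.724 and 0.408 to 7.7 and 11.5 CPM) rose beside Cxcl5. Ccl9 rose from 0.459 and 0.218 to 2.04 and 4.03 CPM, Ccl17 from 0.654 and 0.666 to 11 and 3.97 CPM and Ccl6 from 0.053 and 0 to 0.316 and 0.444 CPM. Besides Cxcl13, the scavenging receptor Ackr4 fell from 5.48 and 5.42 to 1.94 and 0.122 CPM and Ccl11, an eosinophil attractant, from 600.3 and 549 to 424 and 300.3 CPM. Of 36 interleukins, cytokines and receptors 12 were higher and 4 lower. Il1rl1, the receptor of IL-33, rose from 6.93 and 4.51 to 51.3 and 83.6 CPM (3.57 ± 0.31), and Csf3, G-CSF, from 0.0353 and 0.286 to 3.85 and 3.26 CPM (4.88 ± 0.69). Tnfsf11, RANKL, rose from 0.265 and 0.109 to 1.91 and 6.64 CPM and Il13ra2 from 0.247 and 0.19 to 3.2 and 4.24 CPM. Il1rn, the IL-1 receptor antagonist, had 0 UMIs in hyperplasia and 20 and 122 in the tumors, at least 16.5-fold higher against the floor. Il6ra fell from 69.1 and 69.4 to 24.9 and 7.15 CPM (-2.37 ± 0.52), Il18 from 24.5 and 43.7 to 12.4 and 6.69 CPM, Il1r2 from 42.1 and 50.5 to 22.2 and 16.6 CPM and Tnf from 1.52 and 1.06 to 0.385 and 0.5 CPM. Lyz2, a macrophage gene, rose from 12 and 14 to 184 and 297 UMIs in the same libraries, and the part of immune-cell RNA in these cytokine values was not tested. All 6 leave-one-out fits called Il1rl1 and Csf3. Cxcl2 failed only without hyperplasia 1, Ackr4, Tnfsf11 and Il1rn failed also without puberty or adult, Ccl11 failed also without puberty, adult or tumor 2 and Tnf failed also without tumor 1 or tumor 2. Ackr4 lost its call in the fit of the 4 libraries with the mouse as a block (adjusted p 0.0703), as did Tnf (adjusted p 0.0522).

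Of 25 complement genes 5 were higher and 5 lower (20% each, against 15.4% and 13.9% over all genes), which is near the share over all genes. Cd59a, which blocks the membrane attack complex, rose from 7.1 and 6.54 to 77.1 and 78.5 CPM (3.52 ± 0.23), and Cfi from 0.424 and 0.272 to 1.31 and 1.42 CPM. C1qa, C1qb and C1qc, which macrophages express, stood below 1 CPM in every library and were higher in tumor (differences 2.17, 2.92 and 2.08). C7 fell from 11 and 13.2 to 0.563 and 0.155 CPM (-5.30 ± 0.56), C6 from 0.548 and 0.571 to 0.0494 and 0.0333 CPM and Cd46 from 1.98 and 1.59 to 0.681 and 0.411 CPM. C1ra fell from 273 and 245 to 158 and 101 CPM and C1rb from 56.5 and 56 to 31.5 and 14.9 CPM, 2 close copies whose reads are uncertain between them. With any 1 library removed, Cd59a and C7 remained called. C1rb failed also without puberty or adult.

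Interferon-induced genes were lower in 19 and higher in 1 of 38, with a median of -1.35. Ifitm1, an antiviral membrane protein, fell from 120.1 and 112 to 15.5 and 8.36 CPM (-3.34 ± 0.29, adjusted p 0.00295). The immunity-related GTPases Iigp1 (from 1071 and 372 to 179.7 and 65.9 CPM, -2.55 ± 0.60) and Irgm1 (from 328 and 92.6 to 47.1 and 11.7 CPM, -2.91 ± 0.79) fell, as did the guanylate-binding protein Gbp6 (from 48.7 and 23.6 to 10 and 3.57 CPM), Usp18 (from 23.1 and 24.4 to 6.74 and 2.78 CPM) and Rsad2 (from 13.8 and 5.83 to 3.34 and 0.955 CPM). Members of the Iigp, Gbp and Ifi families have close copies, so their own levels are uncertain. Hyperplasia 1 was above hyperplasia 2 for Iigp1, Irgm1, Gbp6 and Rsad2, and tumor 2 was the lowest library for all 6 genes. Ifi27 rose from 167 and 174 to 228 and 294 CPM (0.60 ± 0.17). In each of the 6 smaller fits Ifitm1 passed. Iigp1 failed also without puberty or adult and Irgm1, Rsad2 and Ifi27 failed also without puberty, adult or tumor 2. Ifi27 lost its call in the fit of the 4 libraries with the mouse as a block (adjusted p 0.0543).

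Antigen presentation genes were lower in 8 and higher in 2 of 23. The classical class I genes H2-D1 (from 1657 and 1332 to 586 and 457 CPM, -1.52 ± 0.24) and H2-K1 (from 885 and 631 to 445 and 364 CPM, -0.90 ± 0.25) fell. Nlrc5, their transactivator, fell from 6.1 and 2.65 to 1.01 and 0.377 CPM (-2.62 ± 0.63). H2-Q4 (from 38.9 and 24 to 13.8 and 6.37 CPM), H2-Q6 (from 7.19 and 4.38 to 1.44 and 1.14 CPM) and H2-Q7 (from 36.2 and 22.1 to 13.7 and 10.8 CPM) fell, and these 3 are close copies of each other. The class II genes Cd74 (from 0.477 and 0.666 to 2.06 and 2.88 CPM) and H2-Ab1 (from 0.989 and 1.18 to 2.07 and 2.58 CPM), which antigen-presenting cells express at high levels, rose at a low level beside the macrophage genes given above. H2-K1 and H2-Ab1 failed also without puberty, adult or tumor 2, Nlrc5 and H2-Q7 failed also without tumor 2 and H2-Q6 failed only without hyperplasia 1.

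Genes of adipogenesis and lipid handling were lower in 18 and higher in 1 of 45, with a median of -0.69. Pparg, the master regulator of adipocyte formation, fell from 20.1 and 19.7 to 5.87 and 5.31 CPM, 3.56-fold lower (-1.83 ± 0.16, adjusted p 0.00284). Cd36, a fatty acid transporter, fell from 9.84 and 17.5 to 0.997 and 0.389 CPM (-4.38 ± 0.58), and Fabp4, a fatty acid binding protein, from 76.9 and 215 to 33.6 and 23.2 CPM (-2.19 ± 0.45). Apoe, apolipoprotein E, fell from 944 and 838 to 169.9 and 39.3 CPM (-3.45 ± 0.64). Plin4, a lipid droplet protein, fell from 2.74 and 5.38 to 0.859 and 0.189 CPM and Adh1 from 42.7 and 43 to 12.2 and 3.61 CPM. Fabp5 was the 1 member that rose, from 10.6 and 9.56 to 34.1 and 50.9 CPM (2.05 ± 0.24). The adipocyte-defining genes Adipoq and Plin1 were at 0 to 8 UMIs in all 4 libraries. Leaving out 1 library at a time, Pparg and Cd36 kept the call in all 6 fits. Fabp4 failed only without hyperplasia 2.

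Steroid receptors and metabolism were lower in 6 and higher in 0 of 20. Esr1, estrogen receptor α, fell from 59.3 and 42.2 to 26.1 and 12.5 CPM (-1.47 ± 0.38) and Nr3c1, the glucocorticoid receptor, from 206 and 201 to 127 and 88.2 CPM (-0.95 ± 0.21). Nr3c2, the mineralocorticoid receptor, fell from 11.1 and 9.11 to 2.58 and 2.05 CPM, and Tsc22d3, a glucocorticoid-induced gene, from 171 and 266 to 60.2 and 61.6 CPM (-1.80 ± 0.24). In the retinoic acid list 6 of 16 were higher and 2 lower. Stra6, the retinol transporter, rose from 6.1 and 7.99 to 26.5 and 32.9 CPM and Rdh10, a retinol dehydrogenase, from 23.8 and 22.6 to 55.6 and 117 CPM. Of the retinal dehydrogenases, Aldh1a2 rose from 0.3 and 0.34 to 11 and 11.2 CPM (5.08 ± 0.59) and Aldh1a1 fell from 113 and 121 to 49.6 and 25.6 CPM (-1.71 ± 0.31). Crabp2 rose from 1.48 and 1.2 to 4.53 and 8.51 CPM, Cyp26a1, which degrades retinoic acid, rose from 0 and 0.068 to 9.61 and 2.15 CPM and the receptor Rarb fell from 8.37 and 9.18 to 4.84 and 4.19 CPM. Esr1 failed also without puberty, adult or tumor 2, Nr3c2 failed only without hyperplasia 1, Tsc22d3 failed only without hyperplasia 2 and Cyp26a1 failed also without puberty or adult.

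Glycolysis and hypoxia-response genes were higher in 15 and lower in 2 of 35. Slc16a3, a lactate exporter, rose from 1.63 and 1.26 to 20.3 and 43.3 CPM (4.38 ± 0.52) and Slc2a1, the glucose transporter GLUT1, from 11.1 and 9.46 to 30.5 and 47.5 CPM (1.90 ± 0.31). The glycolytic enzymes Pgk1 (from 43.3 and 55.6 to 123 and 235 CPM), Pfkl (from 5.44 and 6.23 to 15.3 and 25.7 CPM) and Pkm (from 88.2 and 111 to 244 and 445 CPM) rose, and Egln3, a HIF target, from 0.0707 and 0.109 to 1.88 and 2.05 CPM. Hif3a fell from 0.106 and 0.245 to 0.0197 and 0.0111 CPM and Epas1, HIF-2α, from 35 and 33.1 to 25.1 and 22.5 CPM. Of 37 genes of folding and secretion in the endoplasmic reticulum 15 were higher and 4 lower. Pdia5 rose from 13.3 and 14.9 to 47.3 and 72.3 CPM (2.06 ± 0.29), Kdelr3, a retrieval receptor, from 46.8 and 57.9 to 114 and 228 CPM, Sec61b, of the translocation channel, from 157 and 225 to 399 and 667 CPM, Ssr4 from 187 and 222 to 414 and 541 CPM, Kdelr2 from 151 and 193 to 320.1 and 486 CPM and Pdia6 from 172 and 237 to 328 and 599 CPM. The 4 that fell were stress-response genes, Atf4 (from 601 and 499 to 261 and 232 CPM, -1.16 ± 0.17), Trib3 (from 1.8 and 2.07 to 0.859 and 0.466 CPM), Dnajb9 (from 209 and 165 to 74.5 and 58.3 CPM) and Herpud1 (from 135 and 111 to 85.4 and 78.6 CPM). Hif3a, Epas1, Pdia6 and Herpud1 failed also without puberty, adult or tumor 2, Trib3 failed also without tumor 2 and Dnajb9 failed only without hyperplasia 1.

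Immediate early and heat shock genes, which also respond to the dissociation of tissue, were lower in 15 and higher in 2 of 36. Their summed level was 73582 and 62011 CPM in hyperplasia and 41034 and 29715 CPM in tumor. Fos fell from 10361 and 9514 to 5766 and 3318 CPM (-1.18 ± 0.28), Fosb from 7425 and 5796 to 3384 and 2093 CPM, Egr1 from 9182 and 6767 to 4081 and 2013 CPM (-1.46 ± 0.38), Atf3 from 1855 and 1304 to 878 and 329 CPM and Nr4a3 from 260.3 and 214 to 65.2 and 84.4 CPM. Klf4 fell from 5111 and 3872 to 1883 and 619 CPM (-2.05 ± 0.49). Ier3 rose from 513 and 411 to 1212 and 1015 CPM and Hspe1, a mitochondrial chaperonin, from 147 and 162 to 231 and 317 CPM. Fos, Atf3 and Klf4 failed also without puberty or adult, Egr1 and Hspe1 failed also without puberty, adult or tumor 2 and Nr4a3 failed only without hyperplasia 1.

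Among 58 mesenchymal transcription factors 13 were higher and 10 lower (22.4% and 17.2%, against 15.4% and 13.9% over all genes). Runx1, a RUNX family factor, rose from 36.8 and 28.6 to 398 and 438 CPM, 12.9-fold (3.69 ± 0.19, adjusted p 0.00117). Scx, scleraxis, a regulator of tendon cells, rose from 0.565 and 0.218 to 2.52 and 4.47 CPM, Foxs1 from 2.08 and 3.58 to 11.3 and 23 CPM, Foxc1 from 3.11 and 2.61 to 10.7 and 7.19 CPM, Prrx2 from 50.2 and 63.6 to 154 and 184 CPM and Sox4 from 128 and 73.4 to 261 and 266 CPM. Klf9 fell from 1371 and 1306 to 584 and 332 CPM (-1.61 ± 0.29), Sox5 from 28.7 and 32.4 to 11.3 and 7.63 CPM, Foxd1 from 1.24 and 0.965 to 0.247 and 0.0555 CPM and Tcf15 from 0.777 and 0.53 to 0.118 and 0.0666 CPM. Dlx5 fell from 0.477 and 0.829 to 0.178 and 0.0999 CPM, with adjusted p 0.0513 under the replicate block. Among these, Runx1 passed in all 6 fits that left out a library. Prrx2 failed only without hyperplasia 1 and Dlx5 failed also without tumor 2.

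Hox genes keep a record of body position in fibroblasts. Of 29 tested 4 were higher and 5 lower (13.8% and 17.2%, against 15.4% and 13.9% over all genes), which is near the share over all genes. Hoxc10 (GRCm38 chr15:102966796-102971893) had the deepest fall of the named genes, from 25.8 and 38.1 to 0.00987 and 0.122 CPM (-9.54 ± 0.90, adjusted p 0.00379), which is 1 and 11 UMIs in the tumor libraries. The normal libraries had 23.1 and 23.6 CPM. Hoxa9 fell from 6.36 and 7.67 to 0.267 and 0.144 CPM (-5.11 ± 0.48) and Hoxa10 from 6.7 and 10.1 to 0.326 and 0.0333 CPM (-6.16 ± 0.88). Hoxc11 stood at 1.13 and 1.4 CPM in hyperplasia and at 0 UMIs in both tumors, at least 40.2-fold lower against the floor. Hoxa6 fell from 0.601 and 0.789 to 0.0592 and 0.2 CPM. Higher were Hoxa4 (from 0.936 and 0.897 to 2.97 and 3.04 CPM, 1.71 ± 0.24), Hoxb2 (from 8.43 and 10.5 to 22.2 and 38.3 CPM, 1.63 ± 0.30), Hoxb4 (from 8.94 and 8.39 to 14.7 and 12.9 CPM) and Hoxd8 (from 11.9 and 11.4 to 40.9 and 25.5 CPM). Hoxb9 was not called, with differences of -7.76 in mouse 1 and 0.18 in mouse 2, and Hoxc8 and Hoxc9 also fell short of a call while going down in mouse 1 by over 3 on the log2 scale, and all 3 passed without tumor 2. Pitx1, a factor of the hindlimb field, fell from 1.33 and 3.45 to 0.00987 and 0.0333 CPM (-6.56 ± 1.03, adjusted p 0.011), and its difference was -6.49 in mouse 1 and -6.48 in mouse 2. The body position of the tissue and the tumor state cannot be told apart for these genes. All 6 leave-one-out fits called Hoxc10, Hoxa9, Hoxc11 and Pitx1. Hoxa10 failed only without hyperplasia 2 and Hoxb4 failed also without puberty or adult.

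**Figure D5:**
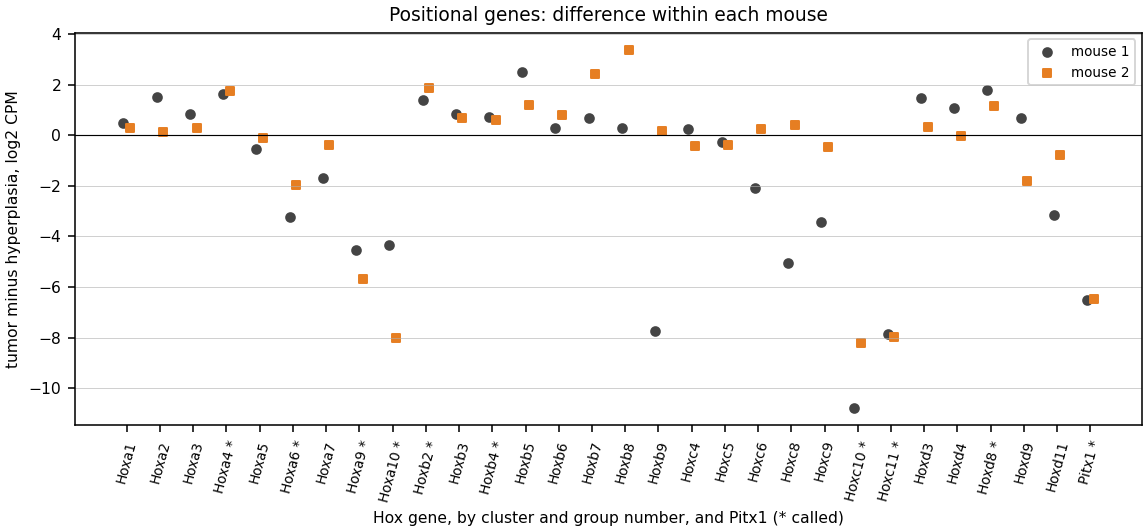
Difference between tumor and hyperplasia (log2 CPM) in mouse 1 (grey circles) and mouse 2 (orange squares) for the 29 Hox genes tested, ordered by cluster and group number, and for Pitx1, with called genes starred. Hoxa9, Hoxa10, Hoxc10, Hoxc11 and Pitx1 are more than 4 log2 units lower in both mice, while Hoxa4, Hoxb2, Hoxb4 and Hoxd8 are above 0.

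Adhesion genes were higher in 11 and lower in 3 of 30. Ncam1, a neural cell adhesion molecule, rose from 6.24 and 10.3 to 98.5 and 216 CPM (4.17 ± 0.41), Cdh2, N-cadherin, from 0.83 and 1.24 to 5.63 and 10.7 CPM (2.89 ± 0.52) and Mcam from 0.724 and 0.503 to 3.1 and 8.07 CPM. Itga1, a collagen-binding integrin chain, rose from 12.5 and 11.6 to 44.8 and 84.5 CPM and Itga3 from 0 and 0.0136 to 0.148 and 0.211 CPM. Cdh3, P-cadherin, which mammary myoepithelium also expresses, rose from 0 and 0.0136 to 0.829 and 5.26 CPM. Itga8 fell from 44 and 33.8 to 8.66 and 4.86 CPM (-2.56 ± 0.28), Itga2 from 14.8 and 11.4 to 6.05 and 1.07 CPM and Itgb7 from 23.5 and 55.6 to 1.84 and 0.189 CPM (-5.86 ± 1.14). Imprinted growth genes other than Dcn were higher in 2 and lower in 4 of 19, against 15.4% and 13.9% over all genes. H19 rose from 8.75 and 7.67 to 44.3 and 93.2 CPM and Meg3 from 541 and 376 to 945 and 1406 CPM, both noncoding RNAs. Peg3 fell from 119 and 60.4 to 38.8 and 24.4 CPM, Slc38a4 from 15.5 and 16.4 to 7.5 and 6.97 CPM and Sgce from 101 and 96.1 to 70.5 and 58.7 CPM. With any 1 library removed, Ncam1 and Itga8 remained called. Cdh3 and Itga2 failed also without puberty or adult, Meg3 failed also without tumor 2 and Peg3 and Sgce failed also without puberty, adult or tumor 2.

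The remaining named genes included those of largest change and epithelial markers. Aqp5, a water channel best known from secretory epithelium, rose from 0.0353 and 0.19 to 25.3 and 36 CPM (8.27 ± 0.74). Kif26b, a kinesin-like protein, rose from 0.3 and 0.163 to 66.1 and 65.6 CPM and Hs6st2, a heparan sulfate sulfotransferase, from 0.3 and 0.299 to 42.7 and 70.6 CPM (7.48 ± 0.55). F5, coagulation factor V, rose from 0.3 and 0.381 to 90.8 and 40.1 CPM, Ecrg4 from 1.36 and 1.54 to 159.8 and 349 CPM, Chl1, a neural adhesion molecule, from 0.389 and 0.299 to 62 and 42.6 CPM, Megf11 from 0.336 and 0.218 to 28 and 37.2 CPM and Ddah1, which degrades asymmetric dimethylarginine, from 1.18 and 2.47 to 159 and 175 CPM. Myoc, myocilin, fell from 231 and 336 to 21.2 and 0.0444 CPM (-7.93 ± 2.08, adjusted p 0.0344), with tumor 2 far below tumor 1, and its call was lost in the fit of the 4 libraries with the mouse as a block (adjusted p 0.0665). Cnmd, chondromodulin, fell from 46.9 and 33.5 to 2.35 and 0.433 CPM (-5.24 ± 0.61), Cpe, a carboxypeptidase of peptide processing, from 59 and 52.7 to 2.98 and 1.93 CPM (-4.52 ± 0.58) and Chrm2, a muscarinic receptor, from 27.1 and 26.7 to 1.67 and 1.55 CPM (-4.06 ± 0.36). Also lower were Ppl (from 27.5 and 27.1 to 2.71 and 0.544 CPM), Ces1d (from 23.3 and 21.5 to 2.86 and 0.344 CPM), Zbtb16 (from 33.8 and 41.2 to 6.66 and 0.433 CPM), Spock2 (from 40.7 and 38.5 to 4.56 and 1.57 CPM), Nos1, the neuronal nitric oxide synthase (from 18.8 and 24 to 2.01 and 1.3 CPM), and the epithelial keratin Krt19 (from 19.7 and 57.8 to 2.97 and 0.944 CPM). Cldn3, an epithelial claudin, fell from 6.13 and 14.9 to 2.72 and 0.0888 CPM, with adjusted p 0.0884 under the replicate block, and Cldn7 rose from 0.0883 and 0.218 to 0.563 and 0.655 CPM, with adjusted p 0.0512. Krt8 and Krt18 were at 4 to 42 UMIs in each of the 4 libraries. In each of the 6 smaller fits Aqp5, Kif26b, Hs6st2, Megf11, Ddah1, Cnmd, Chrm2 and Spock2 passed. Myoc and Cldn3 failed also without puberty or adult, Krt19 failed only without hyperplasia 2 and Cldn7 failed also without puberty, adult or tumor 2.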

How the data were processed

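Droplet single-cell RNA sequencing libraries of sorted mammary fibroblasts were used as deposited, and 7 further libraries of the series were not used here. The authors made raw UMI counts per gene and barcode with Cell Ranger 6.1.2 on mm10 per the labels, filtered by Cell Ranger and not normalized, and the annotation release is not given in the sources used here. The labels name a 3′ v3 kit and the methods a v3.1 kit. Each table lists 32285 genes, of which 32158 were found in GENCODE M21 (GRCm38), used for positions only.

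Fibroblast barcodes were chosen as described above. No filter on cell cycle or doublets was applied (the study's scDblFinder was not rerun), and removing the highest Scrublet scores (0.8% per 1000 barcodes, scanpy 1.11.5) was an alternative. UMIs were summed per library and tested with limma-voom (limma 3.58.1, edgeR 4.0.16 for TMM scaling and filterByExpr, R 4.3.3) in 1 fit of 6 libraries with 3 groups, as in the study's methods, with 3 residual degrees of freedom. Levels are CPM on TMM-scaled totals. Genes were called at a Benjamini-Hochberg adjusted p under 0.05. Hyperplasia and tumor libraries of the same number come from the same mouse per the labels, so the numbers pair the samples. Their deviations from the group means correlated at 0.0754 over 16302 genes. The study's methods state no such block, and a fit with the mouse as replicate block was an alternative. Other alternatives were edgeR's quasi-likelihood test, DESeq2 1.42.0, other scalings, filters on genes and cells, thinning and leaving out each library. On simulated data with 15954 genes, 100 were changed by 1 log2 unit and 100 by 2. There voom recovered 25% of the former and 97% of the latter, with 12 false calls. Far fewer genes were changed there than the 4777 called here, so the adjusted threshold was stricter and these shares do not carry over. A gene that was not called may still differ by 1 log2 unit.

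The lists (1162 names in 45 lists, 1058 tested) and the comparison were chosen with earlier results of these data known. Named genes are the 15 largest rises and the 15 largest falls among called genes with a mean of at least 10 CPM and a difference of at least 1 log2 unit in each mouse, up to 6 called members per list and direction, and a fixed set. Genes outside this rule (Col15a1, Fbn1, Pcolce2, Nkd2, Lgr5, Tpm2, Actn1, Srf, Cnn2, Myl9, Vcl, Myh11, Lmod1, Actg2, Cnn1, Des, Areg, Vegfa, Hoxb9, Hoxc8, Hoxc9, Cd3e, Krt8, Krt18, Adipoq and Plin1) were named after their values were seen. Some genes that the rule names are not reported here. Intervals were not computed for shares of cells, and limits for a count of 0 use 3 counts and cover counting error only. Hyperplasia and tumor hold the same 2 mice, which the main fit did not pair. The spread in that fit also takes in the difference between the puberty and adult libraries, which differ in stage and pool 2 females each. The p-values thus rest on few libraries and do not measure a spread between animals alone.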

Additional observations from a re-analysis of the deposited data

How the results depend on the processing

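The 4777 calls became 2975 (1605 higher, 1370 lower) without puberty, 2946 (1584 higher, 1362 lower) without adult and 242 to 7120 over all 6 fits that left out 1 library (147 to 3614 higher, 95 to 3506 lower). With 1 library left in a group that library is assumed to vary like the others, and these counts were lowest without hyperplasia 1 (242, of which 236 were shared with the full fit) and without hyperplasia 2 (314, 309 shared). Cells thinned to at most 3000 UMIs gave 3032 (1613 higher, 1419 lower), over 14269 genes tested. The fit of the 4 libraries alone without a block gave 3187, with 1502 lower. Other settings stayed within 1.5 times, from 4101 (edgeR, 4 libraries with the mouse as block) to 6152 (6 libraries with the mouse as replicate block, 4681 shared). DESeq2 gave 5668 and edgeR's quasi-likelihood test 4614. The replicate block changed no other call of a named gene in the 6-library fit than those given in the report. No gene called in the full fit reversed its sign under any setting. Named genes without a call that did were Tnc (-0.0025 to 3.20 over the fits that left out 1 library, the lowest without tumor 2), Crabp1 (-0.55 to 0.011, the highest without tumor 1), Gli1 (-0.217 to 0.96, below 0 without hyperplasia 2 or tumor 2, and -0.026 after thinning), Ptch1 (-0.53 to 0.435, above 0 without hyperplasia 1 or tumor 1) and Cxcl12 (-0.38 to 0.228, above 0 without hyperplasia 1 or tumor 2), and also Srf, Hoxc8, Myh11 and Krt8 (0.52, 0.55, 0.23 and -1.50 without tumor 1). The cause was not tested. Shares of fibroblasts with a UMI rose without thinning, as means of 2 libraries from 0.270% to 0.698% for Acta2 in hyperplasia, from 2.34% to 5.52% and from 42.5% to 65.1% for Lrrc15 in hyperplasia and tumor, from 12.1% to 24.6% and from 72.1% to 87.5% for Col12a1, from 1.54% to 3.26% and from 17.7% to 33.5% for Cdkn2a, from 62.2% to 79.2% and from 40.2% to 65.1% for Cd34, and from 3.59% to 7.19% for Mki67 in tumor. Depth limits genes of low level, where 3 UMIs in a library amount to 0.0296 to 0.053 CPM.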
